A study of Mus musculus with 8 samples.

Results

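The genes described here encode 10 paracrine growth factors and receptors through which lung mesenchyme addresses blood vessels, lymphatics, epithelium and mast cells. They are the VEGF family ligands Vegfa, Vegfc, Vegfd (also called Figf) and Pgf, the angiopoietins Angpt1 and Angpt2, the related Angptl2, the ligand Hgf with its receptor Met, and the Kit ligand gene Kitl. The members were chosen by name, as the rows of the count table whose mouse Ensembl identifiers map to these symbols. All 10 were found among 43432 genes, and all 10 passed the filter on low counts together with 15422 genes in all. No level or difference enters that choice, but the list was drawn up with results of the same group comparison known, so the adjusted p-values below say where each gene stood among all genes tested and are no independent evidence.

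The samples were myofibroblasts from lungs of mice at postnatal day 7 on a C57BL/6 background, profiled by RNA sequencing. 4 libraries carried the label Fra-2 transgenic, with constitutive expression of Fra-2 (Fra-2 1 to Fra-2 4, called transgenic-labelled), and 4 carried the label wild type (control 1 to control 4). The labels name no promoter for the transgene, and they do not say whether libraries came from separate animals or pools, so a p-value here rests on library-to-library spread, which may be technical. Fosl2 encodes Fra-2, a transcription factor of the AP-1 family.

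VEGF-A binds the endothelial receptors VEGFR1 and VEGFR2 (Flt1 and Kdr) and placental growth factor binds VEGFR1, while VEGF-C and VEGF-D act on VEGFR3 (Flt4) of lymphatic vessels, with the neuropilins Nrp1 and Nrp2 as co-receptors. Angiopoietin 1 activates the endothelial receptor Tie2 (Tek), and angiopoietin 2 acts on the same receptor, often as its antagonist. Hepatocyte growth factor is typically made by mesenchymal cells and acts on MET of epithelial and endothelial cells. In the lung, VEGF-A and hepatocyte growth factor are known for their part in the growth of alveolar capillaries and epithelium.

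Total counts were 29926239 to 38954848 in the transgenic-labelled libraries and 31986025 to 41335957 in control libraries. Fosl2 itself averaged 132 ± 25.7 CPM (counts scaled to the size of the library) in the transgenic-labelled libraries and 120 ± 14.96 CPM in control libraries (SD, n = 4 each). Its log2 fold change was 0.14 (SE 0.136, adjusted p = 0.888 by edgeR). A two-sided exact permutation test over the CPM values had p = 0.457, and with 4 against 4 libraries no p under 0.0286 is possible. Since Fosl2 did not separate the groups, they are called by their labels. Control 2 held 5.24% of its counts on its top gene, the mitochondrial ribosomal RNA mt-Rnr2, while the top gene of each other library held 1.11% to 1.71%. Reads of Xist and of 4 Y-linked genes put 2 libraries of each group as female and 2 as male.

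The members differed widely in level. The TPM scale divides counts by the length of all annotated exons, whatever the isoform, and so sets genes side by side only roughly. By TPM, Angptl2 stood highest in both groups. It averaged 728 ± 118 TPM in the transgenic-labelled libraries and 677 ± 82.4 TPM in control libraries (SD, n = 4 each). Angptl2 encodes a secreted angiopoietin-like protein that does not bind Tie2 but integrin α5β1 and leukocyte immunoglobulin-like receptors. In the transgenic-labelled libraries the order by TPM went on with Vegfd at 255 ± 40.9, Vegfa at 152 ± 26.6, Met at 102 ± 14.9, Angpt2 at 74.2 ± 7.73, Angpt1 at 57.4 ± 7.48 and Pgf at 35.5 ± 9.64. The lowest levels there were those of Kitl at 10.9 ± 1.22 TPM, Vegfc at 7.77 ± 0.967 TPM and Hgf at 7.14 ± 1.32 TPM. The library values of Vegfc and Hgf overlapped, and every other pair of neighbours in this order lay apart.

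The control libraries kept the same order except for Vegfa and Vegfd. Vegfa measured 155 ± 14.2 TPM there, Vegfd 150 ± 48.2 TPM and Met 130 ± 7.57 TPM, and the ranges of Vegfa and Vegfd, and of Vegfd and Met, overlapped. The other TPM levels in control libraries were 63.7 ± 12.4 for Angpt2, 39.2 ± 2.30 for Angpt1, 25.4 ± 4.48 for Pgf, 9.18 ± 2.26 for Kitl, 6.76 ± 1.96 for Vegfc and 5.62 ± 1.29 for Hgf. In control libraries the ranges of Kitl and Vegfc overlapped, and so did those of Vegfc and Hgf, while Pgf and Kitl lay apart. The precision behind these levels differed, since a library held 114 to 180 reads of Vegfc but 29618 to 45592 reads of Angptl2.

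**Figure D1:**
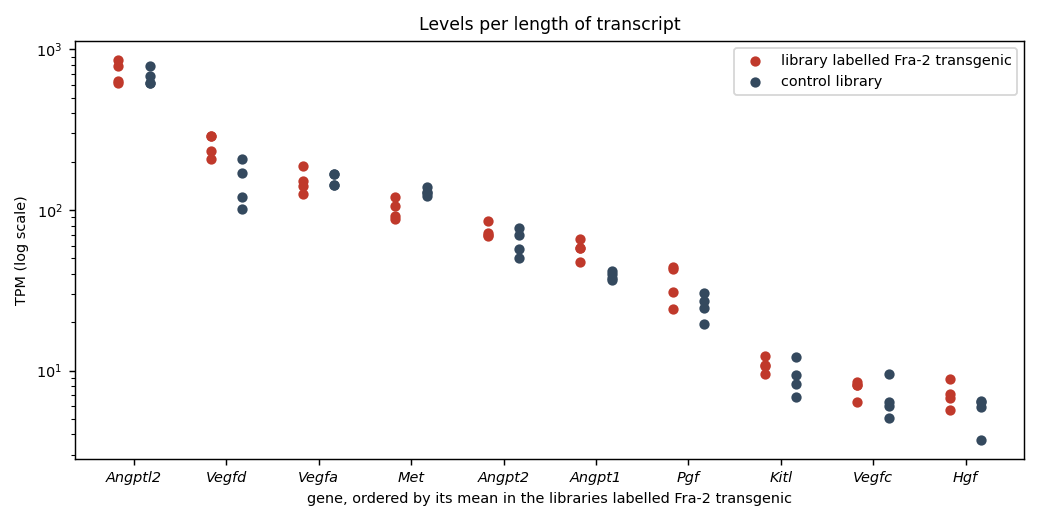
Level of each member in each library in TPM on a log axis, with transgenic-labelled libraries in red left of control libraries in dark blue, and genes ordered by their mean in the transgenic-labelled libraries. Angptl2 stands above all others, Vegfd lies above Vegfa in the transgenic-labelled libraries, and Kitl, Vegfc and Hgf form the low end.

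Between the groups, 1 of the 10 members passed the test (edgeR's quasi-likelihood test, threshold 0.05 on the p adjusted over all 15422 genes tested). Met fell in the transgenic-labelled libraries, and no ligand passed. Over all genes tested, 1.02% were called in either direction, 0.72% as higher and 0.298% as lower. The count of members called higher was 0 by edgeR, 0 by limma-voom and 1 by DESeq2, with 3 at an unadjusted edgeR p under 0.05. The median log2 fold change of the members was 0.16, against -0.0123 over all genes tested. Values of all 4 libraries of one group lay beyond all 4 of the other for 2 members, Met and Angpt1, a separation seen in 5.76% of genes tested (3.35% higher and 2.42% lower). An unadjusted p under 0.05 was reached by 4 of the 10 members, against 8.71% of genes tested.

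**Figure D2:**
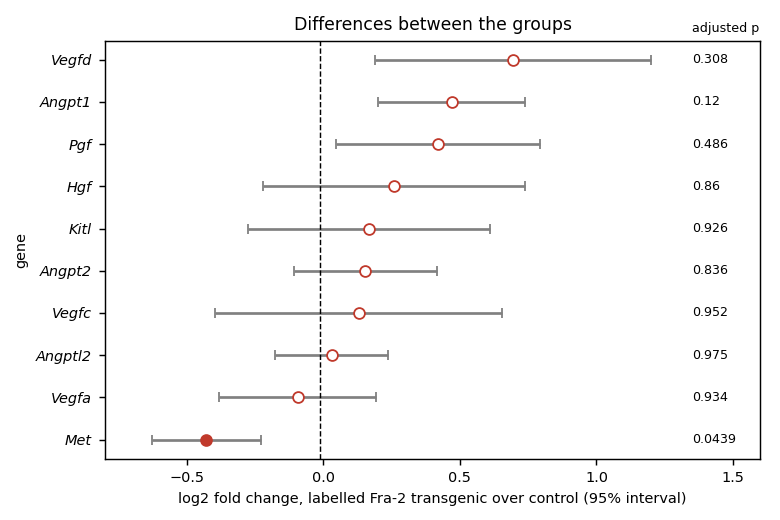
Log2 fold change of each member, transgenic-labelled libraries over control libraries, with 95% intervals from edgeR and the adjusted p over all genes tested printed at the right. The filled point is Met, the 1 member past the threshold, and the dashed line marks the median of all genes tested, -0.0123.

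Among the VEGF ligands, Vegfd showed the largest difference, and it did not pass the test. Vegfd had 152, 105, 169 and 133 CPM in Fra-2 1 to Fra-2 4, against 51.0, 76.8, 99.1 and 118 CPM in control 1 to control 4. Fra-2 2 was the lowest of its group and lay below control 4, so the groups overlapped, and control values differed by more than 2-fold among themselves. The log2 fold change was 0.70 (SE 0.230, adjusted p = 0.308 by edgeR), with a 95% interval of 1.14-fold to 2.30-fold. The fit without control 1, the lowest library, and that without any other single library did not bring Vegfd past the threshold either, with log2 fold changes of 0.52 to 0.89. By DESeq2 its adjusted p was 0.0549. Vegfd lies on the X chromosome (ENSMUSG00000031380, 164373378 to 164402650 in GRCm38). Among female libraries it averaged 161 CPM in the transgenic-labelled and 88.0 CPM in the control ones, and among male libraries 119 CPM in the transgenic-labelled and 84.8 CPM in the control ones.

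Vegfa, the main driver of endothelial growth among these ligands, did not separate the groups. It measured 143, 127, 195 and 127 CPM in Fra-2 1 to Fra-2 4, against 151, 162, 175 and 145 CPM in control 1 to control 4. Fra-2 3 was the highest of all 8 libraries and the other 3 of its group were lower than every control. The log2 fold change was -0.09 (SE 0.134, adjusted p = 0.934 by edgeR), and its 95% interval ran from 0.768-fold to 1.14-fold. Within each library the ratio of Vegfd to Vegfa per length was 1.90, 1.48, 1.54 and 1.85 in Fra-2 1 to Fra-2 4, against 0.603, 0.846, 1.01 and 1.46 in control 1 to control 4. Vegfd thus exceeded Vegfa in 4 of 4 transgenic-labelled libraries and in 2 of 4 control libraries. This ratio was chosen after the values were seen and was not tested.

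Pgf, which encodes placental growth factor, had 19.5, 26.9, 17.1 and 29.5 CPM in Fra-2 1 to Fra-2 4, against 18.4, 14.9, 17.4 and 18.7 CPM in control 1 to control 4. Fra-2 2 and Fra-2 4, both male, stood above every other library, Fra-2 1 just above the controls, and Fra-2 3 within the control range. For Pgf the log2 fold change was 0.42 (SE 0.175, adjusted p = 0.486 by edgeR). Vegfc, the other ligand of VEGFR3, was the least counted member, with 4.35, 4.33, 4.82 and 3.68 CPM in Fra-2 1 to Fra-2 4, against 3.10, 3.25, 5.69 and 3.70 CPM in control 1 to control 4. Control 3 was the highest library, and every transgenic-labelled value lay within the control range. The other controls lay below Fra-2 1, Fra-2 2 and Fra-2 3. The 95% interval of Vegfc, 0.760-fold to 1.57-fold around a log2 value of 0.13 (SE 0.245, edgeR adjusted p = 0.952), was wide.

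**Figure D3:**
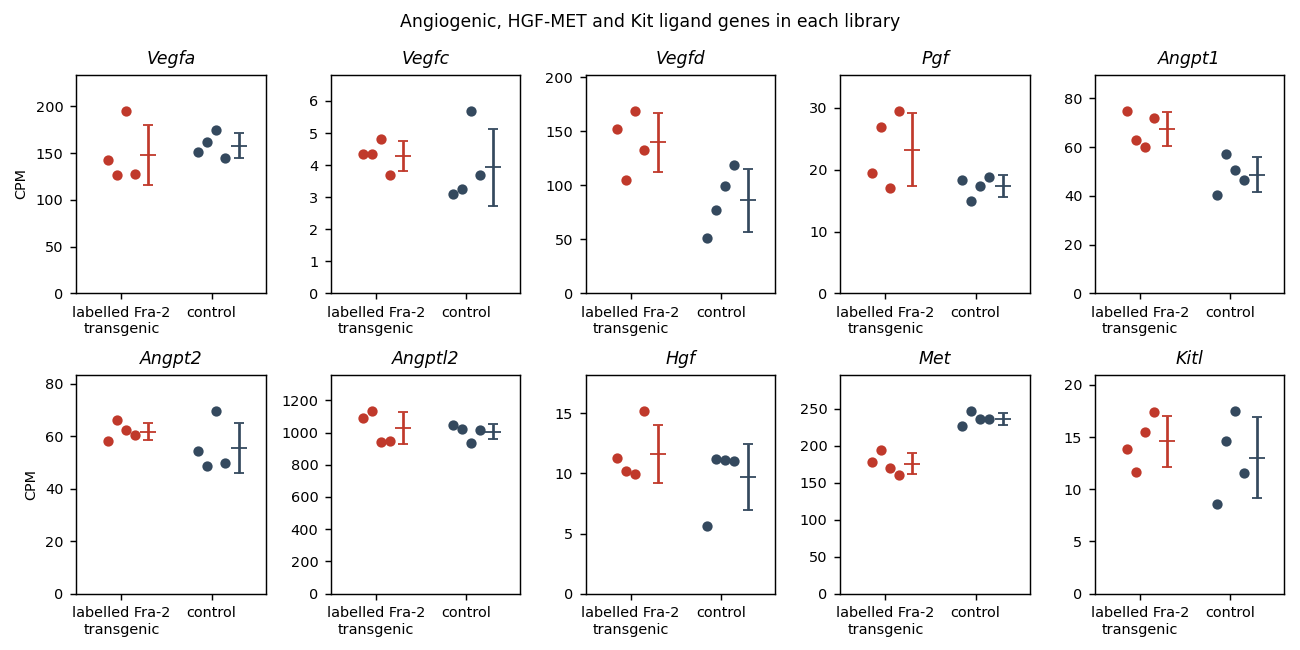
CPM of each of the 10 genes in each library, with the 4 transgenic-labelled libraries in red at the left and the 4 control libraries in dark blue at the right of every panel. Horizontal marks and bars beside the points are the mean and SD, and each panel has its own axis from 0. The groups lie fully apart for Angpt1 and for Met and overlap for the other 8 genes.

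Of the angiopoietins, Angpt1, the activating ligand of Tie2 that mural and other mesenchymal cells make, lay higher in every transgenic-labelled library without passing the test. Angpt1 had 74.8, 63.0, 59.9 and 72.1 CPM in Fra-2 1 to Fra-2 4, against 40.3, 57.3, 50.7 and 46.6 CPM in control 1 to control 4. The gap was narrow, between Fra-2 3 and control 2. The log2 fold change was 0.47 (SE 0.125, adjusted p = 0.12 by edgeR), with a 95% interval of 1.15-fold to 1.67-fold. DESeq2 gave an adjusted p of 0.0343, and over all alternatives the adjusted p ran from 0.0343 to 0.383. Angpt1 lies on chromosome 15 (ENSMUSG00000022309, 42424723 to 42676977), where 737 exonic bases overlap the antisense gene Gm17473. The protocols name no step that marks strand, and Gm17473 held at most 8 reads in a library.

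Angpt2, by contrast, differed little between group means. Angpt2 had 58.3, 66.0, 62.2 and 60.6 CPM in Fra-2 1 to Fra-2 4, against 54.3, 48.6, 69.5 and 49.8 CPM in control 1 to control 4. Control 3 was the highest of all 8 libraries, while the other controls lay below every transgenic-labelled library (log2 fold change 0.15, SE 0.122, edgeR adjusted p = 0.836). The ratio of Angpt1 to Angpt2 per length averaged 0.778 ± 0.117 in the transgenic-labelled libraries and 0.635 ± 0.149 in control libraries (SD, n = 4 each), and the library values overlapped. Angptl2, the most abundant member per length, had 1090, 1130, 944 and 948 CPM in Fra-2 1 to Fra-2 4, against 1050, 1020, 936 and 1020 CPM in control 1 to control 4. The groups overlapped, and the 95% interval ran from 0.886-fold to 1.18-fold (log2 fold change 0.03, SE 0.0962, edgeR adjusted p = 0.975).

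The HGF and MET pair held the 1 call. Met, the receptor tyrosine kinase for hepatocyte growth factor, had 178, 194, 170 and 160 CPM in Fra-2 1 to Fra-2 4, against 226, 247, 236 and 236 CPM in control 1 to control 4. All 4 transgenic-labelled libraries lay below all 4 controls, and both groups were tight, with a coefficient of variation of 8.0% in the transgenic-labelled and 3.52% in the control libraries. The group means were 176 ± 14.0 CPM in the transgenic-labelled libraries and 236 ± 8.31 CPM in control libraries (SD, n = 4 each). This is a fold of 0.744 with a 95% interval of 0.648 to 0.853 (log2 fold change -0.43, SE 0.0926, edgeR adjusted p = 0.0439). Met ranked at position 138 by p among the 15422 genes, close to the threshold, where 157 were called. The direction was the same in both sexes, with means of 174 CPM in transgenic-labelled and 241 CPM in control female libraries, and of 177 CPM in transgenic-labelled and 231 CPM in control male libraries. Met lies on chromosome 6 (ENSMUSG00000009376, 17463800 to 17573980).

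Although its size hardly moved, the call on Met was not kept in every fit. The adjusted p was 0.0559 with total-count scaling and 0.0817 with sex as a covariate. It was 0.149, 0.199 and 0.139 without Fra-2 1, Fra-2 3 and Fra-2 4 in turn, and 0.0616, 0.176, 0.146 and 0.0578 without control 1, 2, 3 and 4 in turn. Without Fra-2 2 it was 0.0235, and DESeq2 gave 0.00214. The log2 fold change stayed between -0.48 and -0.39 over all 16 alternatives.

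**Figure D4:**
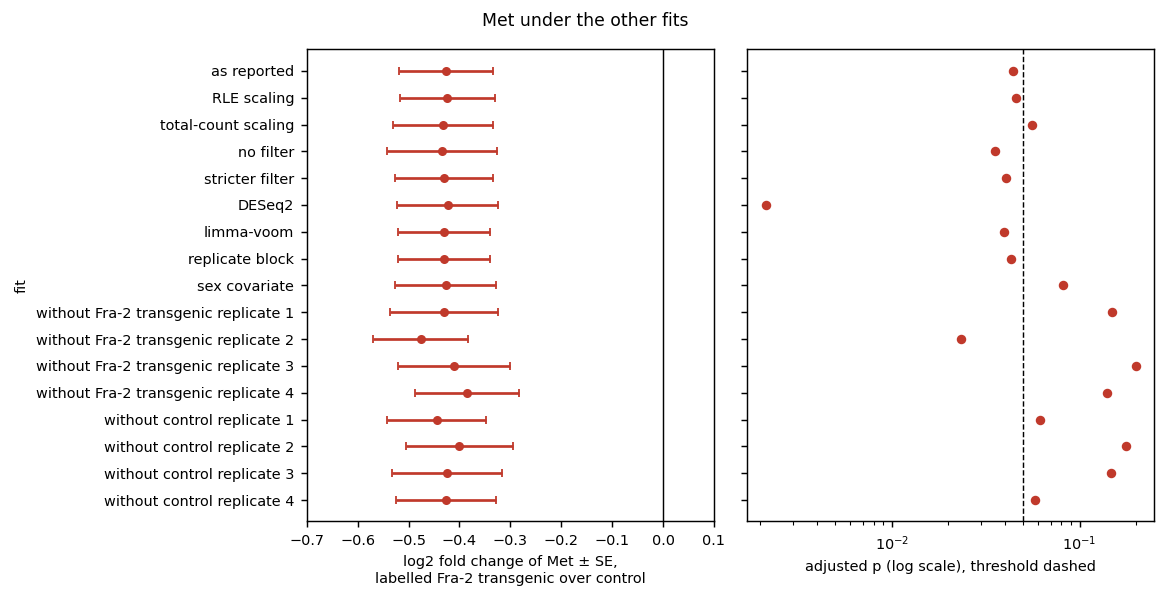
Met under each fit, with the log2 fold change ± SE of transgenic-labelled libraries over control libraries at the left and the adjusted p on a log axis at the right, where the dashed line is the threshold of 0.05. The fold change stays between -0.48 and -0.39 while the adjusted p lies on both sides of the threshold, from 0.00214 to 0.199.

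Hgf, the ligand of MET, was low in these cells and did not separate the groups. Hgf had 11.2, 10.2, 9.92 and 15.2 CPM in Fra-2 1 to Fra-2 4, against 5.62, 11.2, 11.1 and 11.0 CPM in control 1 to control 4. Control 1 stood far below all other libraries and Fra-2 4 above them, while the remaining 6 lay close together. Its log2 fold change was 0.26 (SE 0.224, adjusted p = 0.86 by edgeR), and it was 0.07 without control 1. The ratio of Met to Hgf per length was 14.8, 17.8, 16.1 and 9.90 in Fra-2 1 to Fra-2 4, against 37.6, 20.6, 20 and 20 in control 1 to control 4. These ratios do not overlap between the groups, and they were chosen after the values were seen and not tested. Hgf lies on chromosome 5 (ENSMUSG00000028864, 16553495 to 16620152).

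Since Fra-2 binds DNA as part of AP-1, the promoters of the members were searched for 4 motifs on both strands, in windows of 250 bases before to 50 after each start site (RefSeq, GRCm38.p6). The table held 11 such windows for 8 members, and Angpt1 and Angpt2 were not searched. Of the 8, Met was the 1 with the AP-1 letters TGANTCA, which 7.81% of all 32851 promoters hold. The match lies 54 bases before the RefSeq start site of the Met window. GENCODE M21 begins the gene further upstream, at 17463800, and by that annotation the match lies inside the gene. The cyclic AMP response element TGACGTCA, held by 1.79% of all promoters, was in none of the 11 windows. The hypoxia response core, ACGTG or GCGTG and held by 43.8%, was in windows of Vegfa, Pgf, Hgf, Met and Kitl. Vegfa, Pgf and Hgf each had a further window without it. The Vegfa window with the core, 46025114 to 46025413, lies inside the gene as annotated. That at the annotated start of Vegfa, 46032328 to 46032627, had none. The GC box GGGCGG, held by 35.7%, was in windows of Vegfa, Vegfc, Pgf, Angptl2, Met and Kitl. The windows of Met and Vegfd are shown because Met carried the call and Vegfd the largest difference. Capitals mark AP-1 letters and the hypoxia response core, whose first 2 matches in the Met window overlap as the run CACGTG, read on both strands. The Met window is 75.7% G and C and that of Vegfd 42.0%, where the median promoter has 52.7%.
Met, chr6:17463707-17464006, plus strand: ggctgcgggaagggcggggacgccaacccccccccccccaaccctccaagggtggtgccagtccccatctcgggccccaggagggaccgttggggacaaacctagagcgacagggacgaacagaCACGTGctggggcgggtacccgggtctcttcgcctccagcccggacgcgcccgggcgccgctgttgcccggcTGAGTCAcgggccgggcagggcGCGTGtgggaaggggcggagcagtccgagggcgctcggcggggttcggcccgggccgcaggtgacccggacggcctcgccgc
Vegfd, chrX:164373272-164373571, plus strand: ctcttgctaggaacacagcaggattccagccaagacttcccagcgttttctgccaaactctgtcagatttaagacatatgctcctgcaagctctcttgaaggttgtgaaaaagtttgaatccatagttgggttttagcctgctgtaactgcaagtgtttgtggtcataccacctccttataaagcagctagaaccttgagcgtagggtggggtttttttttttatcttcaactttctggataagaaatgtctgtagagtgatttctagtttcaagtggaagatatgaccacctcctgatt
A match of letters is a description of these windows, and no binding was measured.

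Kitl, which encodes stem cell factor, the ligand of the receptor KIT on mast cells and on progenitor cells, did not separate the groups. Kitl had 13.8, 11.7, 15.5 and 17.4 CPM in Fra-2 1 to Fra-2 4, against 8.56, 14.6, 17.5 and 11.5 CPM in control 1 to control 4. Control 1 was the lowest library, control 3 the highest, next to Fra-2 4, and the coefficient of variation was 16.7% in the transgenic-labelled libraries and 29.5% in control libraries (log2 fold change 0.17, SE 0.207, edgeR adjusted p = 0.926). Kitl averaged 14.6 CPM in transgenic-labelled and 16.0 CPM in control female libraries, and 14.6 CPM in transgenic-labelled and 10 CPM in control male libraries. Hgf likewise differed in opposite directions, with 10.6 CPM in transgenic-labelled and 11.1 CPM in control female libraries, and 12.7 CPM in transgenic-labelled and 8.33 CPM in control male libraries. The female difference in Hgf was small, -0.07 on the log2 scale. Control 1, a male library, was the lowest for both genes, with 5.62 CPM of Hgf and 8.56 CPM of Kitl. Control 4, also male, had 11.0 CPM of Hgf and 11.5 CPM of Kitl. None of the 10 members passed edgeR's test of the interaction of group and sex (adjusted p = 1 for each, unadjusted p = 0.0925 for Kitl and 0.16 for Hgf), and 294 of all 15422 genes had an unadjusted p under 0.05 in that test. With 2 libraries per sex and group, this does not show that the sexes respond alike.

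Among receptors of these ligands, the co-receptor Nrp2 showed the clearest difference. Nrp2 encodes neuropilin 2, which binds VEGF-C, VEGF-D and class 3 semaphorins. It had 115, 72.9, 140 and 106 CPM in Fra-2 1 to Fra-2 4, against 44.7, 49.1, 47.3 and 44.4 CPM in control 1 to control 4. Every transgenic-labelled library lay above the narrow control range, and Fra-2 2 was the lowest of its group, as it was for Vegfd. Nrp2 rose by 1.23 on the log2 scale (SE 0.157, edgeR adjusted p = 0.0012), and it passed in all 16 alternatives (adjusted p up to 0.0114). It lies on chromosome 1 (ENSMUSG00000025969, 62703285 to 62818695). Itga5, the integrin subunit of the ANGPTL2 receptor α5β1, averaged 236 ± 19.7 CPM in the transgenic-labelled libraries and 173 ± 8.20 CPM in control libraries (SD, n = 4 each). It rose by 0.45 on the log2 scale (SE 0.0945, edgeR adjusted p = 0.0385), a call that was kept in 2 of the 8 fits without 1 library, those without Fra-2 2 and control 4 (adjusted p up to 0.152), and lost with sex as a covariate (0.0766).

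The receptors that mark endothelium were low and did not pass. Flt1 averaged 4.65 ± 1.34 CPM in the transgenic-labelled libraries and 7.32 ± 0.589 CPM in control libraries (SD, n = 4 each), with every library of the first group below every control (log2 fold change -0.66, SE 0.222, edgeR adjusted p = 0.294). Tek averaged 14.6 ± 2.09 CPM in the transgenic-labelled libraries and 10.2 ± 1.73 CPM in control libraries, with every transgenic-labelled library above every control (log2 fold change 0.52, SE 0.167, edgeR adjusted p = 0.253). Means in the transgenic-labelled libraries were 8.65 CPM for Kdr, 4.91 for Flt4, 1.72 for Tie1 and 8.66 for Kit, and those in control libraries were 8.26 CPM for Kdr, 4.63 for Flt4, 1.43 for Tie1 and 6.22 for Kit, with overlap for each. Nrp1, the co-receptor of VEGF-A, measured 362 ± 28.8 CPM in the transgenic-labelled libraries and 330 ± 10.7 CPM in control libraries (edgeR adjusted p = 0.797). Of 12 receptor genes tested, 2 rose, 0 fell and 10 did not pass. By DESeq2 the counts were also 2 and 0, and at an unadjusted edgeR p under 0.05 they were 4 higher and 1 lower, which was Flt1. Of all genes tested, edgeR called 0.72% higher and 0.298% lower, and 8.71% had an unadjusted p under 0.05. The groups did not overlap for 5.76% of all genes tested.

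**Figure D5:**
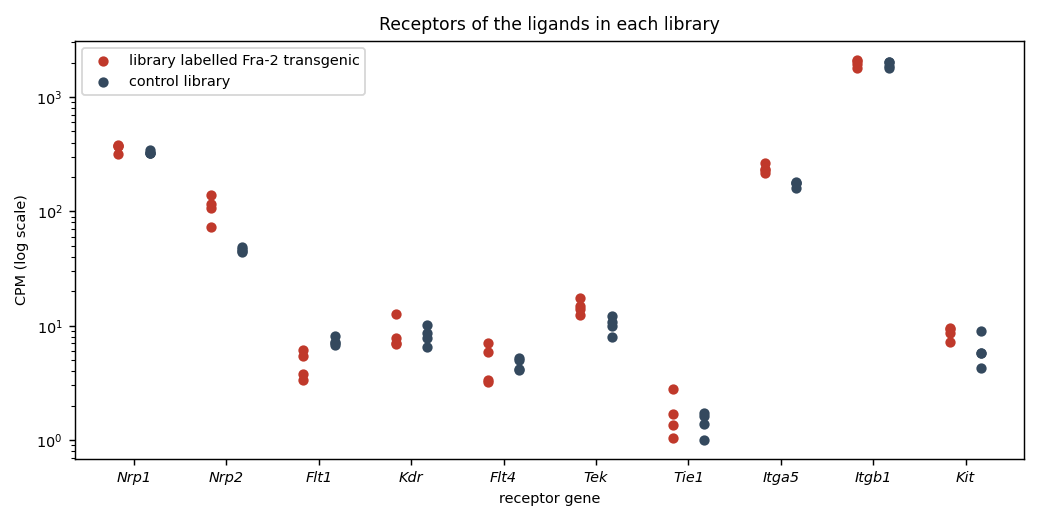
CPM of 10 receptor and co-receptor genes in each library on a log axis, with transgenic-labelled libraries in red left of control libraries in dark blue. Nrp2, Itga5 and Tek lie higher and Flt1 lower in every transgenic-labelled library than in any control, and Flt1, Kdr, Flt4, Tie1 and Kit stay near or below 10 CPM in most libraries.

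Around the members, 5 of 72 tested pathway genes rose and 0 fell (edgeR, where 19 were higher and 1 lower at an unadjusted p under 0.05, and DESeq2 called 11 higher and 0 lower). Their median log2 fold change was 0.16, against -0.0123 over all genes tested. Of all genes tested, edgeR called 0.72% higher and 0.298% lower, and 8.71% had an unadjusted p under 0.05 in either direction. The pathway lists were drawn up with earlier results of these data known, so their counts are a description and no independent evidence. Besides Nrp2 and Itga5, the risers were 1 of 12 other angiogenic factors and 2 of 12 angiogenesis inhibitors. By DESeq2, 3 of these other factors and 5 of these inhibitors were higher and 0 lower. At an unadjusted edgeR p under 0.05, 6 of the other factors and 6 of the inhibitors were higher and 0 lower. Ptn, which encodes the heparin-binding growth factor pleiotrophin, averaged 54.3 ± 14.2 CPM in the transgenic-labelled libraries and 30.1 ± 4.24 CPM in control libraries (log2 fold change 0.85, edgeR adjusted p = 0.0283). Col18a1, the collagen from which endostatin is cleaved, averaged 32.2 ± 2.92 CPM in the transgenic-labelled libraries and 14.9 ± 2.72 CPM in control libraries and passed in all 16 alternatives. Serpinf1, which encodes the angiogenesis inhibitor pigment epithelium-derived factor, averaged 137 ± 20.2 CPM in the transgenic-labelled libraries and 78.7 ± 20.4 CPM in control libraries, at the edge of the threshold (log2 fold change 0.80, edgeR adjusted p = 0.0497). Of the 8 fits without 1 library, Ptn kept its call in those without Fra-2 2 and control 4 (adjusted p up to 0.116) and Serpinf1 in those without control 1 and control 4 (up to 0.17).

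The other pathway lists had no call by edgeR. Of 6 further VEGF, angiopoietin and angiopoietin-like ligands tested, 0 passed by edgeR or DESeq2 and 0 had an unadjusted p under 0.05. The one with the highest CPM, Angptl4, averaged 58.1 ± 7.17 CPM in the transgenic-labelled libraries and 59.5 ± 12.4 CPM in control libraries. Of 10 genes for HGF activation, its inhibitors and MET adaptors, 0 passed by edgeR, and 1 was higher by DESeq2 and at an unadjusted p under 0.05. This was Plat, the plasminogen activator able to cleave HGF, with 304 ± 37.3 CPM in the transgenic-labelled libraries and 225 ± 23.3 CPM in control libraries (edgeR adjusted p = 0.109). Gab1, the most abundant of this list in control libraries, averaged 289 ± 20.2 CPM in the transgenic-labelled and 263 ± 27.3 CPM in the control libraries (edgeR adjusted p = 0.816). For 20 hypoxia pathway genes and targets, 0 passed by edgeR or DESeq2 and 2 were higher at an unadjusted p under 0.05. Arnt, the partner of the hypoxia-inducible factors, averaged 227 ± 17.1 CPM in the transgenic-labelled libraries and 212 ± 15.1 CPM in control libraries.

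Markers of the labelled cell type were high. Those of endothelial, epithelial, leukocyte, mesothelial and mast cells were present at far lower sums. The summed level of 10 myofibroblast markers was 17200 to 19800 CPM in the transgenic-labelled libraries and 17500 to 19300 CPM in control libraries, and Tgfbi, the highest in mean CPM over all 8 libraries, averaged 4240 CPM in the transgenic-labelled and 4650 CPM in the control libraries, while Myh11 was the highest in the transgenic-labelled ones. Summed endothelial markers, 10 genes led by Cdh5, reached 78.1 to 95.9 CPM in the transgenic-labelled libraries and 63.3 to 95.3 CPM in control libraries. Epithelial markers, 10 genes led by Sftpc, reached 129 to 236 CPM in the transgenic-labelled libraries and 68.7 to 152 CPM in control libraries. Per length, Sftpc averaged 268 TPM in the transgenic-labelled and 180 TPM in the control libraries, above the mean of Vegfd in both groups. For 10 leukocyte markers led by Lyz2 the sums were 122 to 159 CPM in the transgenic-labelled and 95.6 to 141 CPM in the control libraries, while for 6 mesothelial markers led by Upk3b they were 7.2 to 14 CPM in the transgenic-labelled and 3.95 to 9.54 CPM in the control libraries. The ranges of the groups overlapped for each of these lists. The 6 mast cell markers, led by Mcpt4 over all 8 libraries and by Cpa3 in control libraries, summed to at most 2.43 CPM in any library. Within these 6 lists edgeR called 0 genes, and DESeq2 called 1 myofibroblast and 1 epithelial marker as higher. At an unadjusted p under 0.05 edgeR gave 2 higher and 1 lower myofibroblast marker, 2 higher mesothelial markers, 1 higher epithelial and 1 higher leukocyte marker, and 0 endothelial or mast cell markers. None of the listed markers in the table was at 0 in all 8 libraries.

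Among markers of other fibroblasts and of pericytes, edgeR's calls lay in the adventitial list. Of these 8 adventitial fibroblast markers, Dpt, Dcn and Serpinf1 (also counted among the inhibitors above) rose, 0 fell and 5 did not pass. The share over all genes tested was 0.72% higher and 0.298% lower. Col14a1, which led the list, averaged 721 ± 9.39 CPM in the transgenic-labelled and 647 ± 56.8 CPM in the control libraries, and the list summed to 1920 to 2330 CPM in the transgenic-labelled libraries and 1580 to 1930 CPM in control libraries, ranges that just overlap. The 8 markers of lipid-type alveolar fibroblasts, led by Npnt, summed to 352 to 472 CPM in the transgenic-labelled libraries and 177 to 327 CPM in control libraries. These ranges lie fully apart. All 8 log2 fold changes were positive, with a median of 0.523, against a median of 0.428 for the adventitial list. Of the lipid-type markers, 0 were called by edgeR, 3 were higher by DESeq2 and 3 were higher at an unadjusted p under 0.05. Pericyte markers summed to 1660 to 1980 CPM in the transgenic-labelled libraries and 1920 to 2340 CPM in control libraries, with 0 called by edgeR, 1 lower by DESeq2, and 1 higher and 2 lower at an unadjusted p under 0.05. Rgs5, which led that list, averaged 1030 ± 141 CPM in the transgenic-labelled and 1390 ± 95.7 CPM in the control libraries (edgeR adjusted p = 0.092). The list did not move as 1, with 4 positive and 4 negative log2 fold changes and a median of -0.00304. Pdgfrb, the marker higher at an unadjusted p under 0.05, averaged 443 ± 20.5 CPM in the transgenic-labelled and 350 ± 41.6 CPM in the control libraries (edgeR adjusted p = 0.194). The part of these cells in the values of Met, Angpt1, Vegfd and Nrp2 was not tested. In bulk libraries a changed number of cells of a type and a changed amount of RNA per cell cannot be told apart.

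The genes most like Met, Angpt1 and Vegfd over the 8 libraries were sought among 9479 genes averaging 5 CPM or more, by the root mean square difference between log2 CPM profiles centred on their own means. Nearest to Met were Ssc5d at a difference of 0.0668, Ccnjl at 0.0865 and St6galnac2 at 0.0872, where the median gene stood at 0.299. Nearest to Angpt1 were Plcd3 at 0.103, Sgip1 at 0.112 and Mitf at 0.115, with a median of 0.339. Nearest to Vegfd were Tmem119 at 0.089, Adh1 at 0.0938 and Amph at 0.113, with a median of 0.54. These profiles include the difference between the groups, so they describe likeness over all 8 libraries and not within a group.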

How the data were processed

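The authors deposited raw counts per mouse Ensembl gene. Per the labels' protocols, 50 ng of total RNA per sample went through mRNA isolation, cDNA amplification (NuGEN Ovation) and Nextera XT library preparation. The submitters' processing notes name build GRCh38, a human build, although the identifiers are mouse genes, and the labels and file header name no aligner, counting tool or annotation. Symbols, coordinates and exon lengths came from GENCODE M21 (GRCm38).

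Counts were tested in R 4.3.3 with edgeR 4.0.16 (filterByExpr, minimum count 10, minimum total 15, TMM, robust quasi-likelihood F-test, two-sided, no covariate, Benjamini-Hochberg over 15422 genes, threshold 0.05). CPM used TMM-scaled library sizes, and SE is the absolute log2 fold change over the square root of F. TPM was computed from counts and summed exon length, whatever the isoform. Library pairs within a group differed by a chi-square per gene of 39.4 to 172, far above what the sampling of reads alone would give. None was therefore taken as a repeat of another library, and all 8 were kept. This is no check of quality. The procedure was tested on simulated data, with 50 genes changed at each size. It recovered 22% of 1.5-fold, 72% of 2-fold, 90% of 4-fold and 98% of 8-fold changes. Not passing the test therefore does not show that a member was unchanged. Alternatives were RLE and total-count scaling, no filter, 5 CPM in 4 libraries, DESeq2 1.42.0, limma-voom 3.58.1, replicate block, sex covariate and each library left out.

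Members, lists and the rule for named genes were chosen with earlier results of these data known. The rule names all members, called pathway genes, the most abundant gene of lists with no call, the most abundant and called markers, and the 3 nearest profiles of the 3 members with the smallest p. Flt1, Tek, Kdr, Flt4, Tie1, Kit and Nrp1 were added as receptors. Plat and Pdgfrb were added outside the rule because of their differences. Plat was the gene of its list called by DESeq2, and Pdgfrb the pericyte marker higher at an unadjusted edgeR p under 0.05.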

Additional observations from a re-analysis of the deposited data

Results flagged for a closer look

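Hgf in the control libraries held 1 library far from the others. Control 1 measured 5.62 CPM, against 11.0 to 11.2 CPM in the other 3 controls, so that the gap made up 0.975 of the group's range, above the critical value of 0.829 for 4 samples. Of 22 groups of 4 examined this way (10 members and Fosl2 in both groups), this was the 1 found, where chance flags about 1 in 20.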

How the results depend on the processing

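The count of members called lower, 1 (Met), was 0 with total-count scaling and 0 with sex as a covariate, and 0 to 1 without each library in turn. Members called higher were 0, and 1 by DESeq2 (Angpt1, adjusted p = 0.0343). Pathway genes called higher, 5, were 11 by DESeq2, 8 with the replicate number as a block, and 2 to 7 without each library. Over all genes, DESeq2 called 266 higher and 104 lower against 111 and 46 by edgeR, and fits without 1 library 50 to 153 higher and 22 to 52 lower. The log2 fold change of Angptl2 ran from -0.0171 (without Fra-2 2) to 0.0732 (without Fra-2 3). Vegfc has no value under the stricter filter, which it did not pass. Of the other member directions 0 turned under any alternative. The block changed no call on a member (Met adjusted p = 0.0433). With the block, 137 genes were higher and 53 lower. Same-numbered libraries correlated over 0.1 in 3 of 4 pairs (-0.0217 to 0.333), not every library correlated best with its own number, and the labels tie the numbers to no litter or batch, so the samples were treated as unpaired. The cause of these changes was not tested. Scaling by RLE or total counts left the median of all genes at -0.00873 and -0.0208. Depth limits Vegfc most, whose lowest count in a library was 114.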
